A study of Mus musculus with 1078 samples.

Results

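The 10 genes described here serve heme breakdown, iron storage and the defence against oxidants. They are Hmox1, Nqo1, Gclc, Gclm, Srxn1, Txnrd1, Slc7a11, Fth1, Ftl1 and Gstm1. They were chosen by name, and 10 of 10 were found among the 21765 genes of a single-cell RNA sequencing table of mouse GL261 tumors. Each was followed by the deposited cell type, by treatment and by the surface marker used to sort the cells.

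GL261 is a mouse glioma line, here grown in the forebrain of C57Bl/6 mice of both sexes, 6 to 8 weeks old at the start. The study asked what losartan, an angiotensin receptor blocker, changes in tumors given an antibody against the immune checkpoint PD1. Losartan animals received 60 mg/kg of the drug daily, anti-PD1 animals received 3 doses of 200 ug of the RMP1-14 antibody, losartan+anti-PD1 animals received both, and controls received saline and a control IgG. Losartan ran for 1 week before the antibody and for 2 weeks up to the collection of tumors. Single cells were sorted by CD31, by CD3, or by the presence or lack of CD45, and sequenced with a full-length method, Smart-seq2.

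Each sort and treatment was 1 plate, and no animal is named for a cell. Every group below is therefore 1 sample, cells are not replicates of a treatment, no test between treatments was made, and a treatment cannot be told apart from its plate. All 49 cells of the CD45-negative losartan plate, 47 of them malignant, carry the losartan treatment label but an experiment name that reads losartan+anti-PD1. The treatment label was used, so every losartan value of that sort is a value of the cells labelled losartan.

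Most of these genes belong to the NRF2 program. NRF2 is a transcription factor that the adaptor KEAP1 marks for destruction; oxidants and electrophiles block KEAP1, and NRF2 then binds antioxidant response elements in its target genes. Hmox1 has a second brake, the heme-sensing repressor BACH1, and the iron that heme oxygenase releases is stored in ferritin, whose amounts are also set by iron through control of translation. In tumors, heme oxygenase is best known from macrophages that take up red cells, and the cystine and glutathione arm from malignant cells under oxidative stress.

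Each cell was scaled to a sum of 100000, and a value is called TP100K. The CD31-positive and CD3-positive cells hold TPM, which is corrected for gene length. The CD45-negative and CD45-positive cells hold expected counts with no such correction: 78.7% of their values above 0 are whole numbers exactly as deposited, against 1.0% in the TPM sorts. Levels of different genes are therefore compared only in the TPM sorts, and no level is carried across sorts. The log2 ratio of 2 groups is that of their mean TP100K after adding 1 TP100K, which understates changes of low genes. For whole groups it was taken only where both held at least 10 cells. Genes had to be detected above 0 by 25% or more of cells in 1 of the groups at least. A gene past a log2 ratio of 1 in either direction is called past the 2-fold threshold. Ratios within a cluster or a range of genes per cell could rest on fewer cells, such as the 3 control TECs of cluster 3. The 95% interval beside a share of cells is the exact Clopper-Pearson one. Such intervals, like the limits given for a count of 0, cover counting error over cells only.

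Antioxidant response elements share the core TGACNNNGC. The promoter entries of RefSeq for GRCm38.p6, 250 bases before to 50 after a start, hold this core on either strand in 12.4% of 32851 entries and in 3 of the 12 entries of the members, which cover 8 of the 10 genes. The match in Srxn1 lies 29 to 37 bases after the start. The 2 matches before a start, in Gclm and in 1 of 3 entries of Txnrd1, are shown because both genes stood highest, among losartan malignant cells, in the cell with the most Hmox1. The sequences are the minus strand of chr3:122245413-122245442 and of chr10:82859104-82859133, with the core in capitals. It lies at bases -134 to -126 of Gclm and -92 to -84 of Txnrd1. A match of letters is not a site in use.
Gclm: ctcgtgagagtTGACGGTGCgcccgggagc
Txnrd1: ccgtgtcagaaTGACAAAGCaaaaatccag

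The table holds 1078 cells, 314 of them from the CD31-positive and 338 from the CD3-positive sort, with 1023 to 7995 genes above 0 per cell. Total expected counts per cell were between 3598 and 1896090 in the CD45-negative sort and between 7946 and 1808020 in the CD45-positive sort. The depth of the TPM sorts is unknown. Malignant cells had 6 of 6 glial progenitor markers above 0 except on the CD45-negative anti-PD1 plate, which has 8 malignant cells and no Pdgfra. Endothelial cells (TECs) had 6 of 6 endothelial markers on every plate, and T cells 5 of 5 T cell markers. In the CD45-positive sort the labels are less plain. Cells labelled microglia from losartan+anti-PD1 tumors had no Tmem119 and no Sall1, control microglia had no Sall1, and 4 of 4 granulocyte markers were above 0 in microglia of all 4 treatments. The cells labelled myeloid had 5 of 5 dendritic cell markers and no Ms4a7.

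In malignant cells of the CD45-negative sort, mean Hmox1 was far higher with losartan than in controls, and 1 cell carried almost all of that mean. Hmox1 encodes heme oxygenase 1, the inducible enzyme that opens the heme ring to release iron, carbon monoxide and biliverdin (mm10 chromosome 8, 75093621 to 75100589, plus strand). Mean Hmox1 was 48.1 TP100K in 47 losartan cells, 21.9 in 8 anti-PD1 cells, 20.5 in 44 losartan+anti-PD1 cells and 1.49 in 49 control cells. The log2 ratio to control was 4.30 for losartan and 3.11 for losartan+anti-PD1. A single losartan cell stood at 2132 TP100K and made up 94.4% of the losartan sum, with the next cell at 46.4. Without it the losartan mean was 2.77, and the log2 ratio was 0.60, under the threshold. The losartan+anti-PD1 cells had highest values of 538.3 and 299.9, and their mean was 8.42 without the first of these. Leaving out both brought the losartan+anti-PD1 log2 ratio to -0.0070. The highest control cell reached 9.69.

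The share of malignant cells with any Hmox1 does not rest on single cells, and its intervals overlap between treatments. It was 51.1% with losartan (24 of 47 cells, interval 36.1 to 65.9%), 38.6% with losartan+anti-PD1 (17 of 44, 24.4 to 54.5%) and 32.7% in control (16 of 49, 19.9 to 47.5%). With anti-PD1 it was 3 of 8 cells. The median losartan cell held 0.32 TP100K. Median genes per cell were 7099 with losartan, 3800 with anti-PD1, 7129 with losartan+anti-PD1 and 7095 in control.

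**Figure D1:**
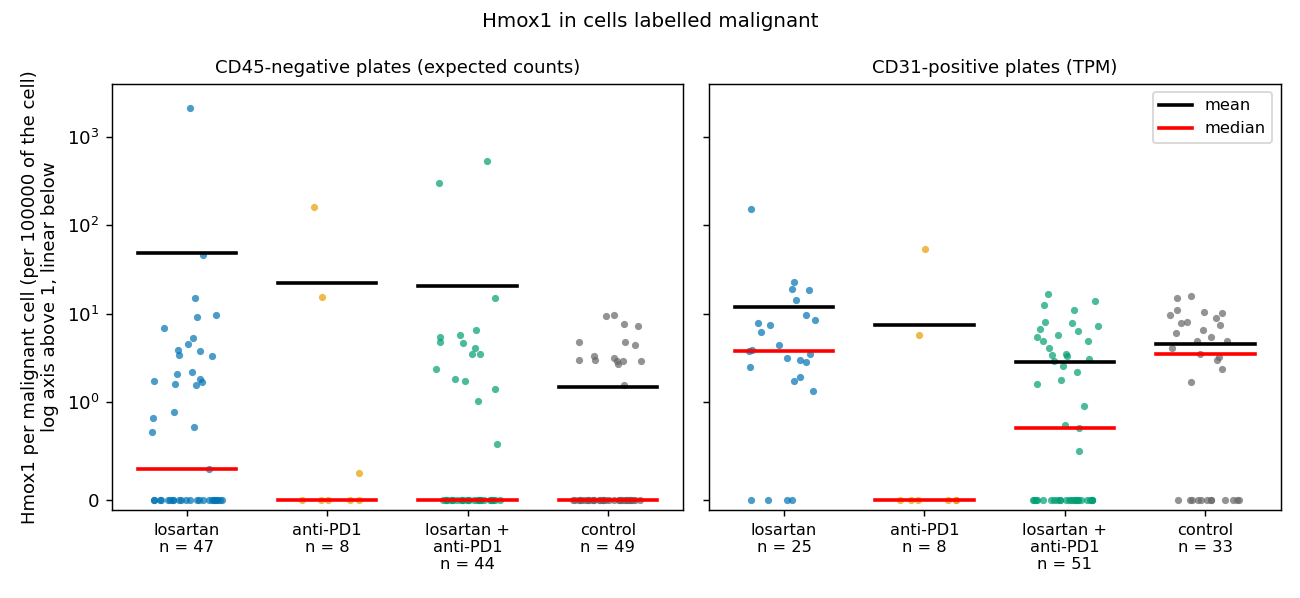
Hmox1 in single malignant cells by treatment, in the CD45-negative sort (left) and the CD31-positive sort (right), in TP100K on an axis that is logarithmic above 1 and linear below; each point is 1 cell, black lines are means and red lines medians. Most cells of every treatment lie under 10 TP100K, and the losartan cell at 2132 stands apart from the next at 46.4, so the losartan mean of 48.1 lies above all but 1 cell.

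The cell at 2132 TP100K was high for much of the oxidant defence set and not only for Hmox1. It had 450080 expected counts and 6999 genes, with 9594 counts of Hmox1. Txnrd1, which encodes thioredoxin reductase 1, stood at 388.8 in it, against 71.9 in the next of the 47 losartan cells. Slc7a11, the cystine importer, stood at 167.9, against 29.8. Both subunit genes of glutamate-cysteine ligase were among its high genes, with Gclm the highest of the 47 at 52.7 (next 16.3) and Gclc second at 7.78. Srxn1, encoding sulfiredoxin, was highest at 31.3, against 15 in the next cell. Other targets of NRF2 stood first as well: Pgd at 44.9 and Me1 at 58.2, both of which supply NADPH, and the glutathione conjugate exporter Abcc1 at 22. Ftl1, the ferritin light chain, was highest at 286.8, but the next cell held 249.7. The ferritin heavy chain gene Fth1 stood at 79.1, with the highest other cell at 258.8, and Gstm1 was at 0.

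That cell held little RNA of immune or vascular cells. Its summed markers of endothelial cells, macrophages, dendritic cells, granulocytes, B cells, NK cells, pericytes and erythroid cells were 0, those of microglia 4.0 TP100K, and those of T cells 1.05, just above the highest other cell at 0.996. Its glial progenitor markers summed to 8.89, against a median of 109.5 in the other 46 losartan cells, and its oligodendrocyte markers to 294, against a median of 40.9 and a highest other value of 761. The part of these differences in its Hmox1 was not tested.

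**Figure D2:**
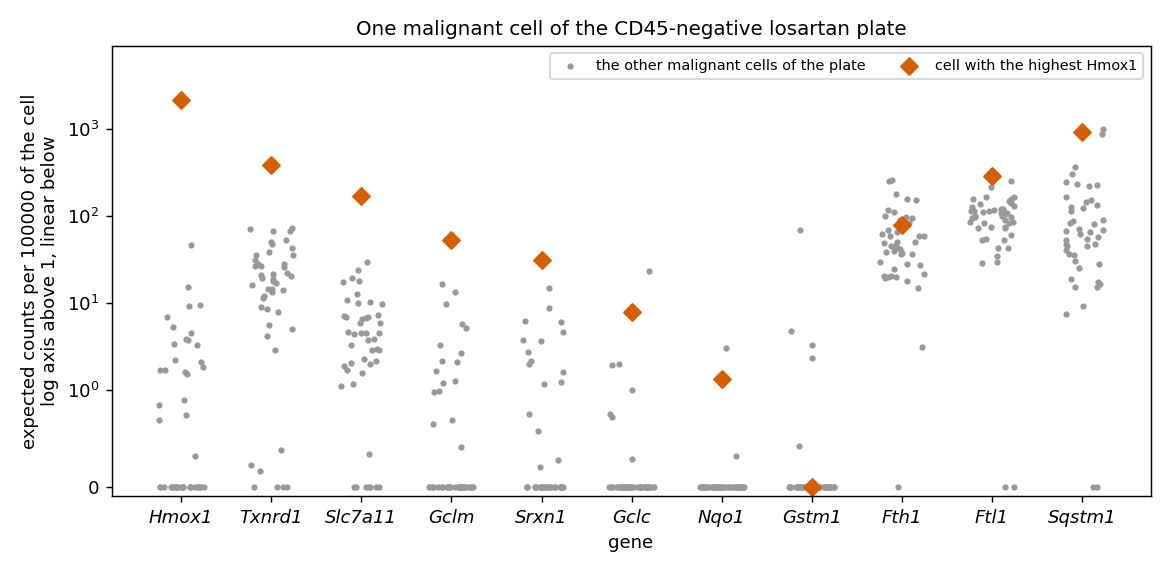
Members and Sqstm1, along the horizontal axis, in malignant cells of the CD45-negative losartan plate, in TP100K on an axis that is logarithmic above 1 and linear below; the diamond is the cell with the most Hmox1 and each grey point 1 of the other 46 cells. The diamond lies above all grey points for Hmox1, Txnrd1 (388.8), Slc7a11 (167.9), Gclm (52.7), Srxn1 (31.3) and Ftl1 (286.8), and among them for Fth1.

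Cells with high Hmox1 also occurred on other plates, where the genes standing highest were only in part those of the losartan cell. The losartan+anti-PD1 cell at 538.3 TP100K is a shallow one, with 58 counts of Hmox1 among 10775. It ranked first of 44 for Slc7a11 at 157.9 (17 counts), and for Gclm and Srxn1, each at 27.8 from 3 counts. The losartan+anti-PD1 cell at 299.9 TP100K is deep, with 554511 counts. It ranked first instead for Fth1 at 161.9, for the autophagy receptor gene Sqstm1 at 1652 (next 568.8), for the peroxiredoxin gene Prdx1 at 1324 (next 387.5), and for the stress genes Sesn2 at 94.7 and Ddit3 at 73.1. The highest anti-PD1 cell held 159.8 TP100K of Hmox1 from 61 counts among 38183, with Ftl1 at 1231 (next 295.2), Fth1 at 618.1 (next 190.7) and Ncoa4, the receptor that delivers ferritin to lysosomes, at 225.2. That cell's oligodendrocyte markers summed to 1930 TP100K, against a median of 10.8 and a highest value of 218.6 in the other anti-PD1 malignant cells, and their part in its values was not tested.

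Across malignant cells of the CD45-negative sort, the relation of Hmox1 to the glutathione and peroxide genes rested in part on these cells. As a description over cells of 1 plate, the Pearson correlation of ln(TP100K + 1) between Hmox1 and Gclm was 0.44 in the 47 losartan cells, 0.65 in the 44 losartan+anti-PD1 cells and -0.05 in the 49 control cells. Without the highest Hmox1 cell of each plate it was 0.06 with losartan, 0.49 with losartan+anti-PD1 and -0.22 in control. For Srxn1 it was 0.50 with losartan, 0.55 with losartan+anti-PD1 and -0.07 in control, and 0.22, 0.42 and -0.12 without those cells. Sqstm1, which encodes a receptor that binds KEAP1, depended less on them: it had 0.51 with losartan, 0.46 with losartan+anti-PD1 and 0.21 in control, and 0.47, 0.48 and 0.20 without them. The CD31-positive malignant cells did not repeat the order of treatments for Srxn1 and Sqstm1, where control was highest. There Srxn1 had -0.05 with losartan, 0.13 with losartan+anti-PD1 and 0.31 in control, and Sqstm1 0.32, 0.12 and 0.37. Gclm had 0.17, 0.19 and 0.12. The cells of a plate share its preparation and differ in depth, and the plates were not tested against each other.

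Malignant cells also occurred in the CD31-positive sort, on other plates and in TPM. There Hmox1 was again highest with losartan. The mean was 11.9 TP100K in 25 losartan cells, 7.51 in 8 anti-PD1 cells, 2.80 in 51 losartan+anti-PD1 cells and 4.54 in 33 control cells. The log2 ratio was 1.22 with losartan and -0.54 with losartan+anti-PD1, so the combination differed in sign from the CD45-negative sort. The highest losartan cell, at 152.2, made up 51% of the sum; without it the losartan log2 ratio was 0.36, under the threshold. Hmox1 was above 0 in 84% of losartan cells (21 of 25, interval 63.9 to 95.5%), 52.9% of losartan+anti-PD1 cells (27 of 51, 38.5 to 67.1%) and 63.6% of control cells (21 of 33, 45.1 to 79.6%). Medians were 3.81 with losartan, 0.73 with losartan+anti-PD1 and 3.50 in control, so the middle losartan and control cells were close. Endothelial markers had a median sum near 0 in these cells, but 1 losartan cell reached 690 TP100K; their part in the result was not tested. The losartan cell at 152.2 had glial progenitor markers of 2.61, against a median of 91.8 in the others.

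Gclc, Gclm and Slc7a11, the genes of glutathione synthesis and cystine import, were under the threshold in malignant cells of the CD45-negative sort. In the CD31-positive sort Gclc and Gclm did not pass the filter. Slc7a11 was under the threshold there, at -0.55 with losartan and -0.43 with losartan+anti-PD1. Gclc and Gclm encode the catalytic and modifier subunits of glutamate-cysteine ligase, the first step of glutathione synthesis (chromosome 9, 77754535 to 77794485, and chromosome 3, 122245557 to 122270732). In the CD45-negative sort Gclc averaged 0.81 TP100K with losartan, 1.35 with losartan+anti-PD1 and 0.95 in control. Gclm averaged 2.58 with losartan (18 of 47 cells), 1.92 with losartan+anti-PD1 (20 of 44) and 0.88 in control (12 of 49), for log2 ratios of 0.93 and 0.64. Without the highest cell the losartan mean of Gclm was 1.49. Slc7a11 encodes the light chain of the cystine and glutamate exchanger (chromosome 3, 49892526 to 50443614, minus strand). It was found in most cells: 40 of 47 with losartan, 42 of 44 with losartan+anti-PD1 and 46 of 49 in control. Its means were 9.41, 8.66 and 5.58 TP100K in that order of treatments, and its medians 4.34, 3.78 and 3.77.

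The peroxide genes were under the threshold as well. Txnrd1 (chromosome 10, 82833951 to 82897712) keeps thioredoxin reduced with NADPH. Its mean was 30.4 TP100K with losartan, 26.8 with losartan+anti-PD1 and 20.8 in control, with medians of 18.6, 20.6 and 17.3 and log2 ratios of 0.53 and 0.35. Srxn1 (chromosome 2, 152105516 to 152111376) repairs over-oxidized peroxiredoxins. It averaged 1.96 TP100K with losartan, 2.81 with losartan+anti-PD1 and 0.92 in control, a log2 ratio of 0.63 and 0.99.

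Nqo1, the quinone reductase whose gene is the usual reporter of NRF2 (chromosome 8, 107388225 to 107403206, minus strand), was close to absent. It was above 0 in 4 of 47 losartan, 1 of 44 losartan+anti-PD1 and 0 of 49 control malignant cells of the CD45-negative sort, where 0 of 49 allows a share of up to 6.12%. It passed the filter in no comparison.

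In the CD45-negative malignant cells, 8 of the 10 members passed the filter. Of these 6 were higher with losartan than in control and 1, Hmox1, was past the threshold, against 1.49% of all 9857 genes. The members' median log2 ratio was 0.58, against 0.10 over all genes. Without the losartan cell of the most Hmox1, 6 of 8 were again higher, but 0 were past the threshold and the members' median was 0.11, level with 0.11 over all genes. With losartan+anti-PD1, 7 of 8 were higher and 1, again Hmox1, was past the threshold, against 2.38% of all genes; medians were 0.45 and -0.02. Without the 2 cells of the most Hmox1 this was 3 of 8 higher and 0 past the threshold, with a median of -0.01. In the CD31-positive malignant cells fewer members were higher than in control, and the counts turned in part on 1 control cell. With losartan 2 of 7 were higher, with Hmox1 past the threshold upward and Gstm1 downward, against 1.78% of all genes, and the medians were -0.55 for the members and -0.07 for all genes. With losartan+anti-PD1 0 of 7 were higher and 1, Gstm1, was past the threshold, against 1.41% of all genes; the members' median was -0.47, against -0.03. Without the control cell of the most Hmox1, 3 of 7 were higher with losartan (median -0.02) and 2 of 7 with losartan+anti-PD1 (median -0.05), with all-gene medians of -0.06 and -0.02. In that sort, with losartan, Txnrd1 averaged 4.28 TP100K against 7.29 in control, Slc7a11 0.89 against 1.77 (1.14 without that control cell), and Fth1 161.2 against 250.

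Gstm1 of malignant cells turned on 1 control cell. Gstm1 encodes a mu-class glutathione transferase (chromosome 3, 108012255 to 108017973, minus strand) and has close paralogs, so reads could be shared among them. In CD31-positive malignant cells its mean was 1.17 TP100K with losartan, 25 with anti-PD1 (6 of 8 cells), 1.26 with losartan+anti-PD1 and 7.29 in control. The control mean was 86.7% from a cell at 208.7, and was 1.0 without it. Without that cell, the log2 ratio moved to 0.12 for losartan, which had been -1.93, and to 0.18 for losartan+anti-PD1, which had been -1.88. That control cell also had the most Hmox1 of its plate, at 15.8, and the most Ftl1 (1208, next 674.4), Slc7a11 (22, next 2.48), catalase (Cat, 60.2), Sqstm1 (422.3), Taldo1 (86.5) and Tkt (65). Its astrocyte markers summed to 355.7 TP100K, against a median of 6.48 and a highest value of 67.4 in the other control cells, and its glial progenitor markers to 7.56, against a median of 92.2. The part of these markers in its Gstm1 and its other values was not tested. The 8 anti-PD1 cells, with the highest Gstm1 mean, also had an astrocyte marker sum with a median of 301.1 and a highest value of 2186, against medians of 8.62 with losartan, 10.4 with losartan+anti-PD1 and 6.69 in control, and 1 of them reached 1035 in pericyte markers. Their part in that mean was not tested.

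**Figure D3:**
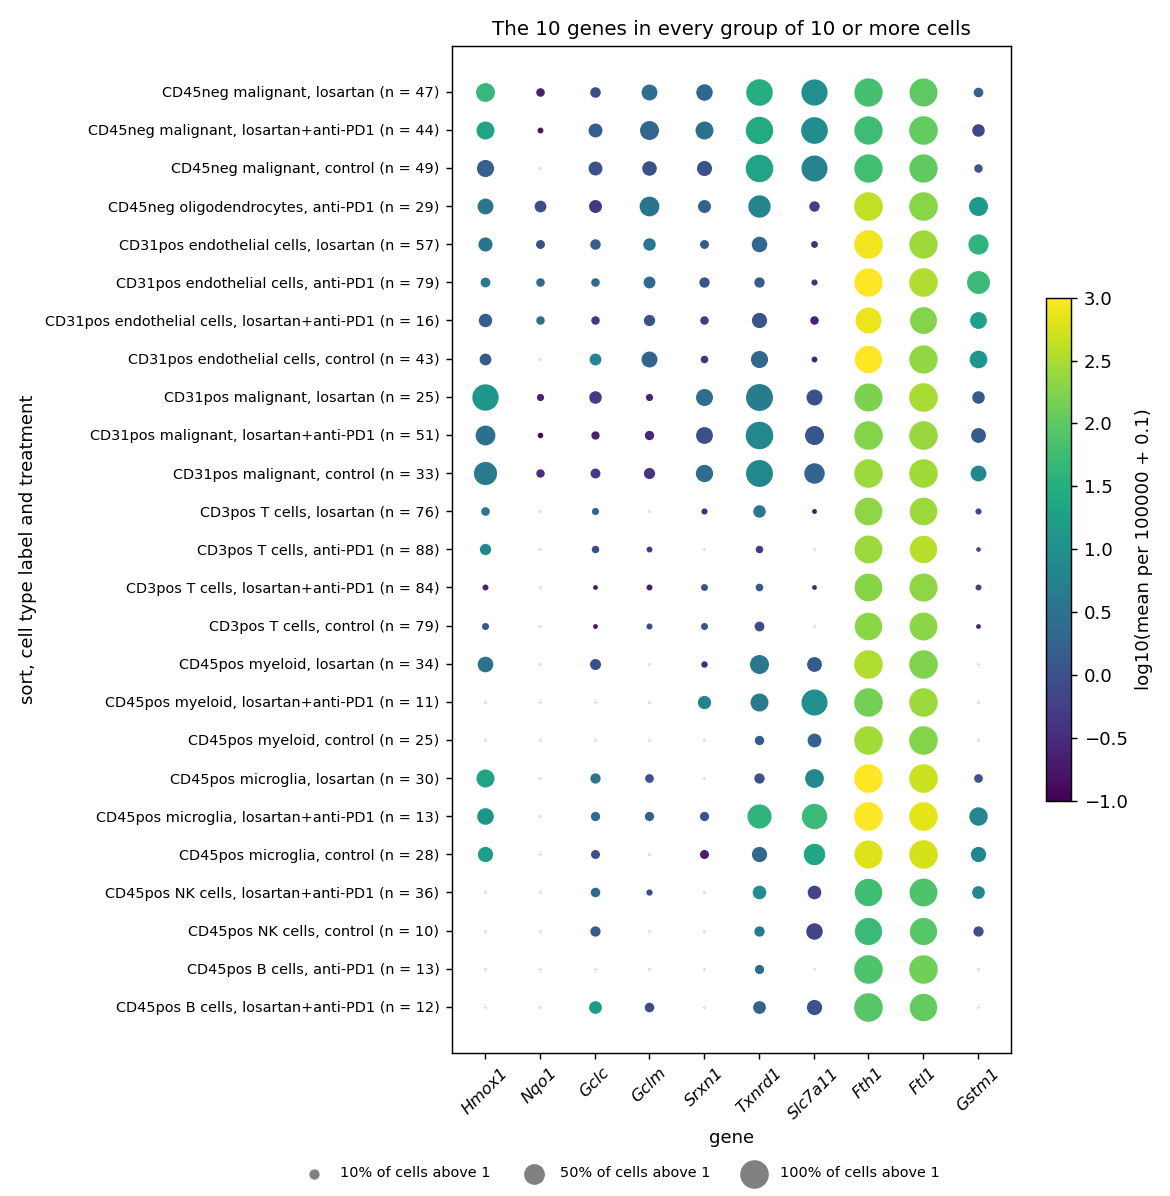
The 10 members, in columns, in every group of 10 or more cells, in rows; dot size is the share of cells above 1 TP100K and colour the log10 of the mean TP100K plus 0.1, which can be read across genes only in the CD31-positive and CD3-positive rows. Ferritin fills every group, Slc7a11 and Txnrd1 are broad in malignant cells, Gstm1 stands out in TECs given losartan (39.2 TP100K) or anti-PD1 (51), and Nqo1 is nearly empty.

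Ferritin was the most abundant part of the set. Taken by treatment, the ratio of its chains lay in separate ranges in TECs and malignant cells. Fth1 (chromosome 19, 9980598 to 9985098) encodes the heavy chain, which oxidizes iron for storage, and Ftl1 (chromosome 7, 45457944 to 45459884, minus strand) encodes the light chain, which helps to form the iron core. Both have processed pseudogenes, so reads could be shared with them. In TECs the mean Fth1 was 816 TP100K with losartan, 1129 with anti-PD1, 762 with losartan+anti-PD1 and 1069 in control. Mean Ftl1 was 260 with losartan, 331 with anti-PD1, 180.9 with losartan+anti-PD1 and 215.5 in control. The ratio of the means, Fth1 over Ftl1, was thus 3.14, 3.41, 4.21 and 4.96 in that order. It was not alike in all deposited clusters of TECs. Over all treatments, the 23 TECs of cluster 12 had close means, 138.9 TP100K of Fth1 and 115.1 of Ftl1. In clusters 3 and 7 mean Fth1 was well above mean Ftl1.

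Malignant cells of the same plates had more light than heavy chain RNA. Their ratio was 0.54 with losartan, 0.45 with anti-PD1, 0.75 with losartan+anti-PD1 and 0.93 in control, or 0.998 in control without the cell of the most Hmox1. Fth1 exceeded Ftl1 in 24% of the losartan malignant cells and 36.4% of the control ones, against 73.7% of the losartan TECs (42 of 57) and 79.1% of the control TECs (34 of 43). T cells lay between, with ratios of 0.80, 0.68, 0.90 and 0.97 and Fth1 above Ftl1 in 46.4 to 48.1% of cells. In every one of these 3 cell types the ratio was lowest with anti-PD1 or losartan alone and highest in control. That order did not hold in the sorts of counts, where the ratio is read between treatments only. In CD45-negative malignant cells it was 0.64 with losartan, 0.52 with losartan+anti-PD1 and 0.57 in control. The ratio was 2.16, 1.37 and 1.09 in microglia and 1.87, 0.55 and 1.54 in myeloid cells, in that order. In NK cells it was 0.79 with losartan+anti-PD1 and 0.60 in control. Each of these values is of 1 plate, and the treatments share the control plate of their sort. TECs and T cells also differed in cluster make-up between treatments, and its part in these ratios was not tested. In CD45-negative malignant cells, on counts, Fth1 was 65.6 TP100K with losartan, 56.4 with losartan+anti-PD1 and 60.8 in control, and Ftl1 was 102.4, 108.3 and 106.1.

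**Figure D4:**
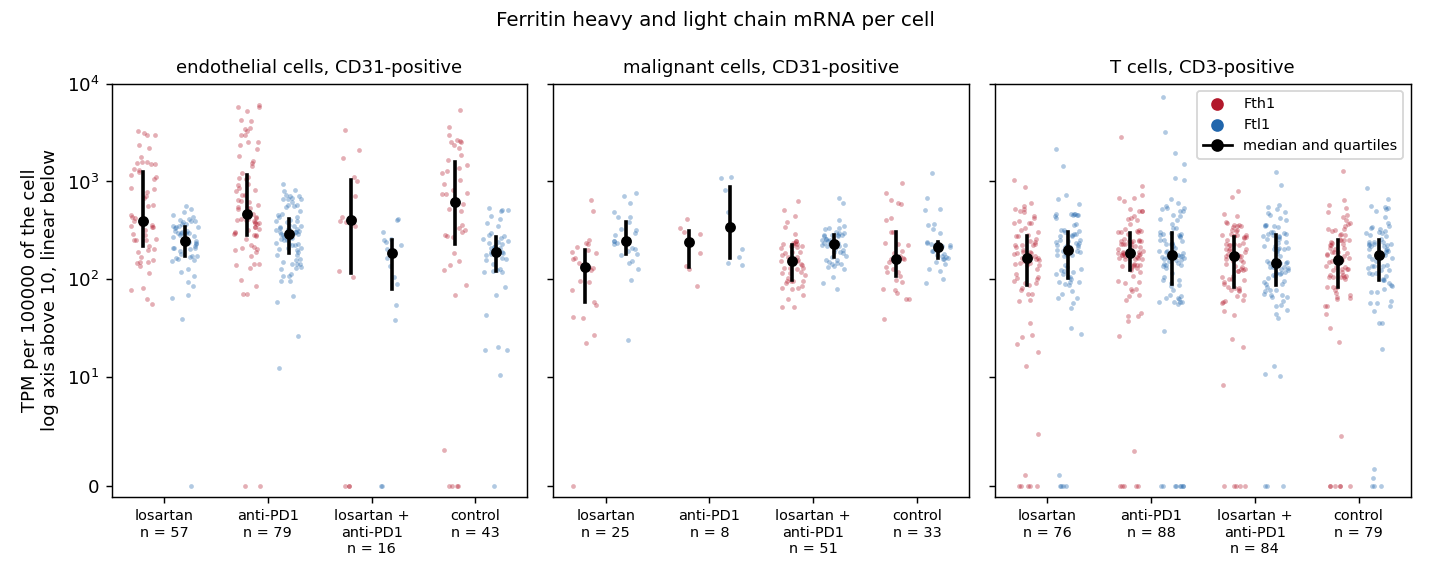
Fth1 (red) and Ftl1 (blue) in single TECs, malignant cells and T cells by treatment, in TP100K on an axis that is logarithmic above 10 and linear below; each point is 1 cell, with black points for medians and bars for quartiles. Fth1 lies above Ftl1 in TECs (ratio of means 3.14 to 4.96) and below it in malignant cells (0.45 to 0.93), with T cells at 0.68 to 0.97.

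Among the members that passed the filter in TECs, Gstm1 was the only one past the threshold against control. Its mean was 39.2 TP100K in 57 losartan cells, 51 in 79 anti-PD1 cells, 18.1 in 16 losartan+anti-PD1 cells and 12.5 in 43 control cells. It was above 0 in 47.4% of losartan (27 of 57, interval 34 to 61%), 62% of anti-PD1 (49 of 79, 50.4 to 72.7%), 31.2% of losartan+anti-PD1 (5 of 16, 11 to 58.7%) and 34.9% of control cells (15 of 43, 21 to 50.9%). The log2 ratio to control was 1.57 with losartan, 1.95 with anti-PD1 and 0.50 with losartan+anti-PD1, and -1.45 for losartan+anti-PD1 over anti-PD1. These intervals cover counting error over the cells of 1 plate each, so their overlap does not weigh the treatments against each other. The losartan+anti-PD1 mean drew 67% from 1 cell and was 6.36 without it.

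The Gstm1 difference moved with the deposited clusters of TECs. Of the anti-PD1 cells 78 of 79 were in cluster 3, as were 29 of 57 losartan, 5 of 16 losartan+anti-PD1 and 3 of 43 control cells. Within cluster 3 Gstm1 averaged 73.8 TP100K with losartan, 51.7 with anti-PD1, 14.1 with losartan+anti-PD1 and 54 in the 3 control cells. In cluster 7 it averaged 3.84 with losartan, 6.20 with losartan+anti-PD1 and 6.65 in control. Over cluster 3 alone the log2 ratio to control was 0.44 with losartan and -0.06 with anti-PD1. Over the other clusters it was -1.27 with losartan. The clusters were built from all genes, so the split is a description. Fth1 differed between clusters too, with control means of 2747 TP100K in cluster 3, 1299 in cluster 7 and 115.2 in cluster 12.

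**Figure D5:**
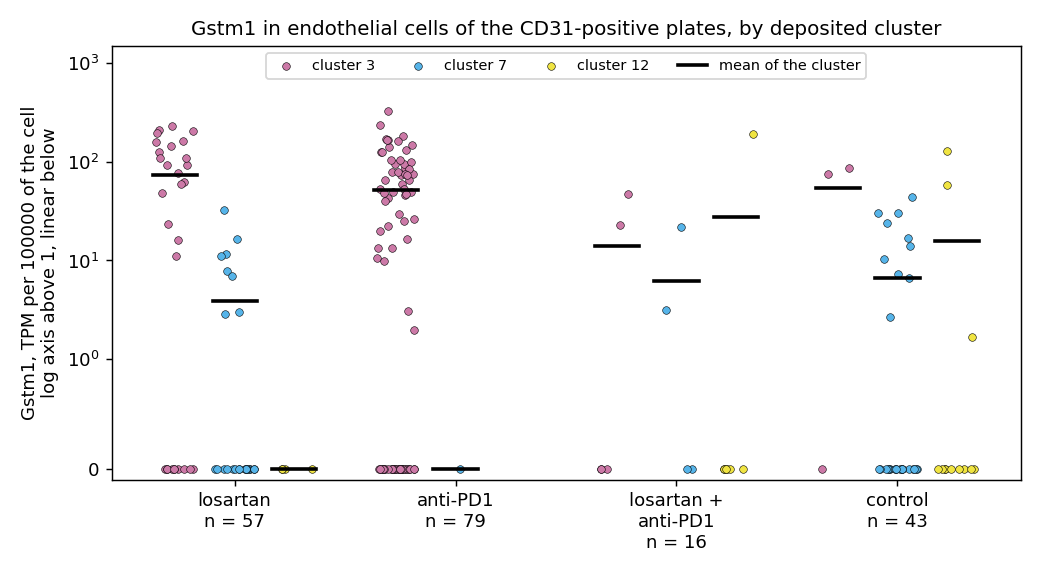
Gstm1 in single TECs by treatment, coloured by deposited cluster, in TP100K on an axis that is logarithmic above 1 and linear below; each point is 1 cell and each black line the mean of a cluster. Most cells above 10 TP100K are of cluster 3, which holds 78 of 79 anti-PD1 cells and 3 of 43 control cells.

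The other members of TECs were low, and single cells set several of their means. Hmox1 was above 0 in 22.8% of losartan (13 of 57), 11.4% of anti-PD1 (9 of 79), 4 of 16 losartan+anti-PD1 and 16.3% of control cells (7 of 43). Its means were 3.38 TP100K with losartan, 3.99 with anti-PD1, 1.34 with losartan+anti-PD1 and 1.14 in control, and 1 anti-PD1 cell at 170.9 made up 54.2% of its plate's sum. Gclm averaged 3.90 with losartan, 2.13 with anti-PD1, 0.91 with losartan+anti-PD1 and 1.79 in control. Gclc averaged 1.49, 2.26, 0.32 and 6.42 in the same order, and 70.4% of the control sum was 1 cell. Slc7a11 was above 0 in 34 of 57 losartan TECs but above 1 TP100K in only 2, so it is read as a trace. Nqo1 was above 0 in 4 of 57 losartan, 6 of 79 anti-PD1, 1 of 16 losartan+anti-PD1 and 0 of 43 control cells, the last allowing a share of up to 6.98%.

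Counts of members past the threshold in TECs are given beside the share of all genes. Too few members passed the filter to read a difference from that share. With losartan 4 of the 6 that passed the filter were higher and 1 was past the threshold, against 15.7% of all genes, with medians of 0.19 for the members and 0.05 for all genes. With anti-PD1 5 of 6 were higher and 1 was past it, against 17.9%, with medians of 0.15 and 0.07. In both the member past the threshold was Gstm1. With losartan+anti-PD1 2 of 7 were higher and 0 were past it, against 25.8%, with medians of -0.25 and -0.05. Set against anti-PD1 alone, losartan+anti-PD1 had 0 of 6 higher and 2 lower past the threshold (Gstm1 at -1.45 and Hmox1 at -1.09), against 26% of all genes, with medians of -0.72 and -0.10. Without the highest anti-PD1 cell the mean of Hmox1 was 1.86 TP100K there and its ratio -0.29, under the threshold, and by the mean of ln values the ratio changed sign to 0.14. Under 75th percentile scaling the losartan ratio of Gstm1 was 0.29 and the Hmox1 ratio -0.10.

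Among the iron genes of TECs, Tfrc and Trf were past the threshold with all 3 treatments and the ferritin genes with none. Tfrc, the transferrin receptor that brings iron in, averaged 8.85 TP100K with losartan, 17.1 with anti-PD1, 9.23 with losartan+anti-PD1 and 0.569 in control, for log2 ratios of 2.65, 3.53 and 2.70. Slc40a1, the exporter ferroportin, averaged 21 with losartan, 33.6 with anti-PD1, 4.79 with losartan+anti-PD1 and 8.0 in control, past the threshold with losartan (1.29) and anti-PD1 (1.94). Trf, encoding transferrin, was lower with each treatment, at -1.002 (barely past the threshold), -1.97 and -2.21. Of the iron genes that passed the filter, 2 of 13 were past the threshold upward and 1 downward with losartan, 3 of 13 upward and 2 downward with anti-PD1, and 2 of 14 upward and 3 downward with losartan+anti-PD1. Of all genes, 9.37% were past it upward and 6.35% downward with losartan. With anti-PD1 these shares were 10.5% and 7.40%, and with losartan+anti-PD1 12.4% and 13.4%. Of the 13 listed NRF2 targets beyond the members that passed with anti-PD1, 5 were past the threshold upward and 1 downward, against 10.5% of all genes upward and 7.40% downward, among them the glutathione transferase gene Gsta4 (172.98 against 49.6 TP100K) and Cat, at 1.07, and Gstm5 was past it downward at -1.17. Set against anti-PD1 alone, losartan+anti-PD1 had 4 of 15 of these targets higher and 5 past the threshold downward, led by Ephx1 at -2.52, against 14.8% of all genes past it downward. TECs of these groups also differed in cluster make-up, and its part in these ratios was not tested.

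T cells held little but ferritin. Fth1 averaged 209.8 TP100K with losartan (76 cells), 253.3 with anti-PD1 (88), 187.8 with losartan+anti-PD1 (84) and 198.01 in control (79), with medians of 164.5, 184.5, 171.6 and 156.1. Ftl1 averaged 261.7, 373.9, 208.4 and 203.8 in the same order, and 1 anti-PD1 cell at 7361 raised that mean, which was 294 without it. Hmox1 was above 0 in 5 of 76 losartan, 13 of 88 anti-PD1 (14.8%, interval 8.1 to 23.9%), 2 of 84 losartan+anti-PD1 and 4 of 79 control cells. On 2 of the 4 plates it moved with RNA of macrophages: its correlation with the summed macrophage markers, over cells of 1 plate, was 0.44 with losartan, 0.50 with anti-PD1, 0.04 with losartan+anti-PD1 and 0.17 in control. The part of that RNA in the T cell values was not tested. Nqo1 was at 0 in all 327 T cells, which allows up to 3.95%, 3.41%, 3.57% and 3.80% by treatment.

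No member was past the threshold in any of the 4 T cell comparisons. With losartan 2 members passed the filter and 0 were past it, against 5.87% of all genes. With anti-PD1 it was 0 of 3, against 8.16%, with losartan+anti-PD1 0 of 3, against 4.85%, and with losartan+anti-PD1 over anti-PD1 0 of 3, against 8.98%. The members' median log2 ratio was 0.22, 0.35, 0.03 and -0.43 over these comparisons, and that of all genes 0.03, 0.01, 0.05 and 0.05. Beyond the members, Prdx1 was higher with anti-PD1, at 81.3 against 39.4 TP100K (1.03), and 5 of 5 NRF2 targets that passed the filter were higher and 2 past the threshold, with a median of 0.83. The T cell plates also differed in cluster make-up. Cluster 4 held 4 of 76 losartan cells, 56 of 88 anti-PD1 cells, 12 of 84 losartan+anti-PD1 cells and 20 of 79 control cells, and its part in these values was not tested.

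Microglia had the highest shares of Hmox1-positive immune cells, with no clear difference by treatment. Mean Hmox1 was 21.8 TP100K with losartan (12 of 30 cells), 19.5 with anti-PD1 (3 of 8), 12.5 with losartan+anti-PD1 (4 of 13) and 15.9 in control (7 of 28). The log2 ratio was 0.43 with losartan and -0.32 with losartan+anti-PD1. Highest cells of 200.7 with losartan and 208.2 in control reached the same range.

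Txnrd1 and Slc7a11 were higher in losartan+anti-PD1 microglia. Txnrd1 averaged 0.85 TP100K with losartan, 2.02 with anti-PD1, 39.3 with losartan+anti-PD1 and 2.06 in control. It was above 0 in 10 of 13 losartan+anti-PD1 cells (76.9%, interval 46.2 to 95%) and 11 of 28 control cells (39.3%, 21.5 to 59.4%). The log2 ratio was 3.72 with losartan+anti-PD1, and 2.70 without the highest cell. Slc7a11 averaged 7.01 with losartan, 1.98 with anti-PD1, 52.8 with losartan+anti-PD1 and 23.2 in control, with medians of 23.4 and 1.63 in the last 2. Its log2 ratio was -1.59 with losartan and 1.15 with losartan+anti-PD1. The control mean drew 53.2% from 1 cell. Without that cell the losartan ratio was -0.61, under the threshold, and the losartan+anti-PD1 ratio 2.13.

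The microglia groups differed in make-up too. Summed microglia markers had medians of 473 TP100K with losartan, 327 with anti-PD1, 17.9 with losartan+anti-PD1 and 113.03 in control, and macrophage markers 408, 46.3, 130 and 499. The part of this in the ratios above was not tested. Within cluster 6 Txnrd1 averaged 48.1 TP100K in 7 losartan+anti-PD1 cells and 3.33 in 16 control cells, and within cluster 11 29 in 6 and 0.38 in 12. Over all treatments Slc7a11 averaged 6.17 TP100K in cluster 6 and 44.5 in cluster 11, and Hmox1 12.95 and 27.05. Cluster 11 held 6 of 30 losartan, 4 of 8 anti-PD1, 6 of 13 losartan+anti-PD1 and 12 of 28 control cells. The losartan ratio of Slc7a11 did not keep the threshold within either cluster. The losartan+anti-PD1 ratio of Slc7a11 lost it only with a pseudocount of 10. Counted over members, losartan microglia had 2 of 6 higher and 2 past the threshold downward (Slc7a11 and Gstm1), against 28.4% of all genes, with medians of -0.47 for the members and 0.24 for all genes. Gstm1 was 0.97 TP100K with losartan and 7.21 in control, of which 74.6% was 1 cell, and its ratio of -2.06 was -0.56, under the threshold, without that cell. With losartan+anti-PD1 4 of 6 were higher and 2 past the threshold upward (Txnrd1 and Slc7a11), against 37.6%, with medians of 0.46 and -0.24.

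Cells labelled myeloid had next to no Hmox1 in control tumors. It was above 0 in 11 of 34 losartan cells (32.4%, interval 17.4 to 50.5%), 0 of 11 losartan+anti-PD1 cells, which allows a share of up to 27.3%, and 1 of 25 control cells, at 0.456 TP100K. The losartan mean was 3.17 and its highest cell 41.6, for a log2 ratio of 2.03. Txnrd1 averaged 3.73 with losartan, 4.18 with losartan+anti-PD1 and 1.30 in control, where 1 cell made up 92.8% of the sum. Slc7a11 averaged 1.22 with losartan, 9.27 with losartan+anti-PD1 and 1.59 in control, and Fth1 331.7, 138.8 and 283.3 in the same order. With losartan 3 of 5 members were higher and 2 past the threshold upward (Hmox1 and Txnrd1), against 13.8% of all genes, with medians of 0.23 and 0.17. Hmox1 passed the filter there through the losartan cells only, so the filter largely set its direction in this count. With losartan+anti-PD1 3 of 4 were higher, 2 past the threshold upward (Txnrd1 and Slc7a11) and Fth1 past it downward at -1.02 (-0.94 without the highest cell), against 32.9%, with medians of 0.82 and -0.10. Of the 11 further NRF2 targets that passed with losartan, 4 were past the threshold upward, among them Abcc1 at 2.34 and the NADPH enzymes Pgd at 1.15 and G6pdx at 1.04.

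No Hmox1 was found in lymphoid cells of the CD45-positive sort. It was above 0 in 0 of 36 losartan+anti-PD1 NK cells (up to 8.33%), 0 of 10 control NK cells (up to 30%), 0 of 13 anti-PD1 B cells (up to 23.1%) and 0 of 12 losartan+anti-PD1 B cells (up to 25%). Txnrd1 was 9.19 TP100K in losartan+anti-PD1 NK cells and 4.05 in control ones, where 97.7% was 1 cell, for a log2 ratio of 1.01 and 0.78 without the highest cell. It was the 1 member of 4 past the threshold in NK cells, against 31.5% of all genes, with medians of 0.10 for the members and 0.03 for all genes. Oligodendrocytes, 29 cells of the CD45-negative anti-PD1 plate, had Hmox1 in 9 cells, Gclm in 14 and Gstm1 in 13, and an Fth1 mean of 416 TP100K.

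On the control plates, most members differed past the threshold between cell types of 1 sort. TECs had more Fth1 than malignant cells of the CD31-positive sort, at 1069 against 250 TP100K (2.09), and more Gclm, at 1.79 against 0.30 (1.10, or 0.87 without the highest cell). They had less Hmox1, at 1.14 against 4.54 (-1.37), and less Srxn1 (-1.41), Txnrd1 (-1.42) and Slc7a11 (-1.27). Of the 8 members that passed, 3 were higher in TECs, with 2 past the threshold upward and 4 downward, against 36% of all genes, and medians of -0.79 and -0.16. Hmox1 and Srxn1 passed the filter through malignant cells only and Gclm through TECs only, so the filter largely set their direction in these counts. The groups differed in depth as well, with a median of 3620 genes per TEC and 7188 per malignant cell. In cells of 2000 to 6000 genes the ratio of Hmox1 changed sign to 0.22 and that of Srxn1 to 0.55. Without the control cell of the most Hmox1 the ratio of Slc7a11 was -0.90, under the threshold, and that of Gstm1, 0.70 with it, was 2.76, past it. The genes of the ATF4 stress response, whose factor also drives Slc7a11, were lower in TECs in 6 of 6 cases, among them Ddit3, at 0.590 against 49.7 TP100K. In the CD45-positive sort, 0 of 6 members were higher in myeloid cells than in microglia and 5 were past the threshold downward, led by Hmox1 at -4.06, against 30% of all genes, with medians of -2.31 and 0.13. Hmox1 and Gstm1 passed the filter through microglia only, at 7 of 28 cells each, so the filter largely set their direction in these counts. After thinning to 50000 counts neither passed both the filter and the threshold. Gstm1 was found in 0 of 25 myeloid cells, which allows up to 12%, and in 7 of 28 microglia.

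Across the 25 groups of 10 or more cells, centred within each sort, the genes most like Hmox1 were C1rl (Pearson r 0.80), Clec4a3 (0.79), Asph (0.78), C1qa (0.78) and Slc11a1 (0.78), out of 12716. Of the members, Ftl1 had 0.69 with Hmox1, Slc7a11 0.67, Fth1 0.42, Txnrd1 0.23 and Srxn1 0.07. The genes most like Fth1 were Mtus1 (0.93), Myof (0.92), App (0.90), Mcl1 (0.90) and Adam15 (0.89), and Ftl1 had 0.75. The groups share plates and sorts, so these are descriptions.

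Few genes of the further pathway lists were past the threshold in malignant cells, other than those of the ATF4 response. In the CD45-negative sort 9 of 13 NRF2 targets beyond the members were higher with losartan, with a median log2 ratio of 0.22 against 0.10 over all genes, and no listed gene but Cul3, a ligase subunit that acts with KEAP1, was past the threshold (2.44 against 6.66 TP100K, -1.15). With losartan+anti-PD1 10 of 14 were higher, and Trf (1.34), Cul3 (-1.40) and Trib3 (-1.05) were past the threshold, against 2.38% of all genes. A single control cell made up 69.5% of the control sum of Cul3, which enters both of its ratios. A single losartan+anti-PD1 cell made up 26.7% of the Trf sum there. The ratios of Cul3 and Trf without these cells were not computed. In the CD31-positive sort 2 of 13 NRF2 targets were higher with losartan, with a median of -0.42 against -0.07, or 3 of 13 and -0.27 without the control cell of the most Hmox1. The ATF4 response had 0 of 6 genes higher with losartan+anti-PD1 in either sort, with medians of -0.55 in the CD45-negative and -0.89 in the CD31-positive sort. In the CD31-positive sort 3 of those 6 were past the threshold downward, against 1.41% of all genes: Ddit3 (23.5 against 49.7 TP100K), Trib3 (15.9 against 34.6) and Chac1 (4.11 against 12.1). Their log2 ratios were -1.05, -1.07 and -1.36 in that order. The highest control cell of each gene made up 22.5%, 12.7% and 21.8% of its control sum. Ratios without those cells were not computed.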

How the data were processed

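Single-cell RNA-seq (Smart-seq2) was read from 1 table of 1078 cells and 21765 genes, with a deposited table of cell types, clusters and treatments. The authors aligned reads with Bowtie to the mm10 transcriptome, quantified them with RSEM (1.2.8 in the submitters' notes, which also name TopHat) and set limits of 1000 and 8000 genes per cell and of 20 housekeeping genes. The deposited values are TPM in the CD31-positive and CD3-positive sorts. In the CD45-negative and CD45-positive sorts the deposited values are expected counts, although the table is named as TPM. Each cell was scaled to 100000. The authors gated singlets by forward scatter when sorting, and no doublet caller was run here. Sorts and treatments came from the sample labels, cell types from the deposited annotation.

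Means, shares, log2 ratios and their alternatives were computed in Python 3.11.15 with pandas 2.3.3, NumPy 2.4.6 and SciPy 1.17.1, and figures in matplotlib 3.10.9. The steps were tested on simulated data. Genes named were the 10 members, genes of the fixed heme, iron, NRF2, glutathione, oxidase and ATF4 lists that were past the threshold, the genes compared in the highest Hmox1 cells, and the 5 genes most like Hmox1 and Fth1. Members and lists were chosen with earlier results of these data known. Positions are those of the mm10 annotation. Alternatives tried were the pseudocount, the filter, scaling by the 75th percentile, means of ln values, cells of 2000 to 6000 genes, thinning of counts, leaving out the highest cell, and, chosen after seeing the data, single clusters, leaving out 2 cells and leaving out the malignant cells of the most Hmox1.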

Additional observations from a re-analysis of the deposited data

Results flagged for a closer look

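Gstm1 differed in sign between cell types under the same losartan against control contrast. Its log2 ratio was 1.57 in TECs, -1.93 in malignant cells of the CD31-positive sort and -2.06 in microglia of the CD45-positive sort. Each contrast compares 1 plate with 1 plate, and the difference was not tested. Single cells and clusters carried all 3 values: without 1 control cell the malignant ratio was 0.12, and without the highest cell the microglia ratio was -0.56. The TEC ratio was 0.44 within cluster 3, against only 3 control cells, and -1.27 over the other clusters.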

How the results depend on the processing

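No paired analysis was possible because each sort and treatment is 1 plate and no replicate numbers are shared. For Hmox1 in CD45-negative malignant cells the losartan log2 ratio of 4.30 was 4.92 with a pseudocount of 0.1, 2.34 with 10, 0.47 by the mean of ln values, 0.10 in cells of 2000 to 6000 genes, 0.60 without the highest cell and 0.17 without the 2 highest losartan cells. With losartan+anti-PD1 it was -0.0070 without the 2 highest. In CD31-positive malignant cells the losartan Hmox1 ratio of 1.22 was 0.59 with a pseudocount of 10, 0.63 by ln values, 4.46 in cells of 2000 to 6000 genes and 0.36 without the highest cell. Median genes per malignant cell of that sort were 7008 with losartan and 7188 in control. The range of 2000 to 6000 genes therefore left out most of these cells, and ratios within it rest on the lesser part of them. Reversed signs were also found for Gstm1 of CD31-positive malignant cells. Without the highest cell it was 0.12 with losartan and 0.18 with losartan+anti-PD1, and in cells of 2000 to 6000 genes 1.02 with losartan+anti-PD1. Gstm1 of TECs was -1.27 with losartan outside cluster 3, and -0.063 with anti-PD1 within it, against only 3 control cells. Signs also reversed for Hmox1 of TECs with losartan+anti-PD1 over anti-PD1 (0.14 by ln values), and for TECs over malignant cells of 2000 to 6000 genes (Hmox1 0.22, Srxn1 0.55). Of the 30 member ratios past the threshold, 30 kept it with a pseudocount of 0.1, 11 with 10, 12 by ln values, 25 with 75th percentile scaling and 19 without the highest cell. Of all genes, the share past the threshold with 75th percentile scaling was 54.3% for TECs over malignant cells (36% as reported), 8.28% for TECs with losartan (15.7%), 17.2% for TECs with losartan+anti-PD1 over anti-PD1 (26%), 18.3% for microglia with losartan (28.4%), 3.03% for T cells with losartan (5.87%), and 3.58% and 2.67% for CD31-positive malignant cells with losartan (1.78%) and losartan+anti-PD1 (1.41%). With a filter of 10% of cells it was 10.2% for T cells with losartan and 8.08% with losartan+anti-PD1 (4.85%), and 9.31% with losartan and no filter. That scaling put the all-gene median at -0.88 for TECs over malignant cells (-0.16 as reported) and -0.31 for TECs with anti-PD1 (0.07). Depth limits the low members, above all Nqo1, Gclc and Srxn1, and the TPM sorts give no depth.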

Other observations

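Genes of the oxidant defence outside the 10 members were past the threshold in both directions in immune cells, where large shares of all genes were past it too. In losartan+anti-PD1 microglia, with 37.6% of all genes past the threshold, the glutathione reductase gene Gsr averaged 79.7 TP100K, against 36.3 in control (1.11), with Osgin1 at 1.96, Prdx5 at 1.77 and Sod2, the mitochondrial superoxide dismutase gene, at 1.64, while Prdx3 was lower at -3.10, G6pdx at -2.44, Cat at -1.63 and Gstp1 at -1.37. Of the 11 NRF2 targets that passed the filter there, 4 were higher, 2 past the threshold upward and 3 downward. In losartan microglia, with 28.4% of all genes past it, Sod1 was higher at 1.61 and Mafg, a partner of NRF2, at 1.86, and Mafk, another partner, was lower at -2.07, as were Taldo1 at -1.69 and Mgst1 at -1.57. Between cell types of the control plate of the CD45-positive sort, with 30% of all genes past the threshold, Gsr (-2.88), Pgd (-2.34) and Mgst1 (-4.23) were lower in myeloid cells than in microglia, as was Nfe2l2, the gene of NRF2 itself, at -2.18. TECs had more Slc40a1 (3.16), Cp (3.20) and Alas1 (3.22), the first enzyme of heme synthesis, than malignant cells of their sort, with 36% of all genes past it. In CD45-negative malignant cells Trf was higher with losartan+anti-PD1, at 57 TP100K, against 21.9 in control (1.34), with 2.38% of all genes past the threshold. A single cell made up 26.7% of that losartan+anti-PD1 sum, and the ratio without it was not computed.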
